A study of Mus musculus with 26 samples.

Results

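Antibody diversity begins with the variable (V) genes of the immunoglobulin loci, and the use of these genes was followed through colitis-associated tumorigenesis in mice fed a standard or a GW3965 diet. The set comprised all V genes named *Ighv*, *Igkv* or *Iglv* with a number and annotated as an IG_V biotype on GRCm38. They were chosen by their estimated counts, of which at least 10 were required when summed over the 26 colon samples. This left 221 of 346 V genes, with 75 of the 125 others listed at 0 in every sample. The heavy chain locus *Igh* on chromosome 12 (113578504 to 116000461) held 112 of its 183 V genes, the kappa locus *Igk* on chromosome 6 (67555497 to 70704177) held 106 of 160, and the lambda locus *Igl* on chromosome 16 (19085017 to 19260859) held all 3. Of the 221 genes, 201 were annotated as functional V genes and 20 as V pseudogenes, and the pseudogenes never took more than 1.22% of the V counts of a sample. Just below the limit were *Igkv8-31* with 9.0 summed counts and *Ighv1-25* with 8.03, and just above it were *Ighv1-79* with 10.0 and *Ighv1-73* with 11.5. These counts are a description of the choice and were not tested.

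Bulk RNA-seq was performed on biopsies of the distal colon, where tumours form in this model, from wild-type male C57BL/6J mice, about 10 weeks old at the start. Azoxymethane (AOM), a carcinogen, was injected and dextran sodium sulfate (DSS), which injures the colonic epithelium, was then given in up to 3 cycles in the drinking water. Standard (STD) food or food with GW3965, a synthetic agonist of the liver X receptor (LXR), was fed throughout, and 3 samples per diet were analysed at each of days 22, 43 and 70. The paper places day 22 after the first DSS cycle, and later days followed more cycles. Day and number of cycles therefore cannot be told apart. At day 0 each diet had 4 samples, taken from animals without AOM or DSS, 2 after 22 and 2 after 43 days of the diet, and 1 day 0 sample titled GW3965 carried the standard diet in another label. By the labels, all day 22 and day 43 samples of a diet shared 1 cage of 6 samples, all day 0 samples of a diet shared 1 cage of 4, and each day 70 sample had a cage of its own. Diet and cage therefore cannot be told apart at days 0, 22 and 43. No cage held both untreated and AOM–DSS samples, so that treatment and cage cannot be told apart in any comparison with day 0. The study describes its bulk RNA-seq samples as mice in its figure legends and as pools of biological replicates in its reporting summary, so a sample here may be 1 mouse or several.

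Each developing B cell joins 1 V gene to shorter segments and places the product before the constant region of its heavy or light chain, so that the V gene sits at the 5′ end of the antibody transcript and the constant region at its 3′ end. A heavy chain pairs with a kappa or a lambda light chain. Plasma cells, the antibody-secreting descendants of B cells, carry far more of this transcript per cell than B cells do, and in the colon most of them make IgA. When a clone expands, its V genes rise with it, so the share of each V gene among all V transcripts, here called its usage, reads the makeup of the antibody-producing cells. In these bulk samples fewer cells of a type and less RNA per cell cannot be told apart. V genes within a family are close copies, which bears on how far the counts of single genes can be read.

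To show how alike neighbouring genes can be, the germline V exons of 3 pairs are given from their coding start, 300 bases each, read on the coding strand from the GENCODE M21 transcripts of GRCm38. The capitals mark the bases that differ within a pair. *Iglv1* (chr16:19085022-19085321, minus strand) and *Iglv2* (chr16:19260406-19260705, minus strand), which supply most lambda chains, differed at 9 of 300 bases.
Iglv1: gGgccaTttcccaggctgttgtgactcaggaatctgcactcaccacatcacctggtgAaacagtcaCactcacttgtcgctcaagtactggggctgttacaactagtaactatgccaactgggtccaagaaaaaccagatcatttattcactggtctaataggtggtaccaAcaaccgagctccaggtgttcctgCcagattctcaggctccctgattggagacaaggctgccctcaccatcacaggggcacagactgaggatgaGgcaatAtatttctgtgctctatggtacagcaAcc
Iglv2: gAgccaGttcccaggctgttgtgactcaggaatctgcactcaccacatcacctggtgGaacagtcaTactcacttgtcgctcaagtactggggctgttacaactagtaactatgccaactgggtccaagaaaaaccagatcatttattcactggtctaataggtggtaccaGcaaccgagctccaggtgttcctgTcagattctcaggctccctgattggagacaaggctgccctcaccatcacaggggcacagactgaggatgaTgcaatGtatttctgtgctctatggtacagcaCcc

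A pair of much used kappa genes, *Igkv1-110* (chr6:68270955-68271254, plus strand) and *Igkv1-117* (chr6:68121515-68121814, plus strand), differed at 10 of 300 bases, with the longest identical run spanning 142 bases.
Igkv1-110: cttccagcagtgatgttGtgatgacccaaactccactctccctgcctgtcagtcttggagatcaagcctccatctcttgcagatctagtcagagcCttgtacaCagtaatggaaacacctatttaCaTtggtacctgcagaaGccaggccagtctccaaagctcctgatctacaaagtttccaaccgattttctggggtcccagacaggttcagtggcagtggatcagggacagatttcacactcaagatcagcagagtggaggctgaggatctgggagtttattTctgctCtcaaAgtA
Igkv1-117: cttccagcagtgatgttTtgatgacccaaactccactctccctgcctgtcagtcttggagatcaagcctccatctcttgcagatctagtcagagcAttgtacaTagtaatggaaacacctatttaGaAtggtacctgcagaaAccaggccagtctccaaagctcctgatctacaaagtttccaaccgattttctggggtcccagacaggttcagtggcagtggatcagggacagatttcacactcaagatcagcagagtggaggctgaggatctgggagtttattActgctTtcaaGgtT

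*Ighv1-72* (chr12:115757989-115758288, minus strand) and *Ighv1-62-3* (chr12:115461004-115461303, minus strand) are the closest of the 3 pairs, with 3 differing bases and 99.0% identity.
Ighv1-72: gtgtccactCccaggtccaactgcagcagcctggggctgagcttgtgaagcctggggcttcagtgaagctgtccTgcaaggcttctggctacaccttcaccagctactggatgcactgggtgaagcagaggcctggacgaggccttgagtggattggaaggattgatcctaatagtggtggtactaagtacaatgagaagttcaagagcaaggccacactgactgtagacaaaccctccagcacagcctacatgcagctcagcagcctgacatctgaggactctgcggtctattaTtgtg
Ighv1-62-3: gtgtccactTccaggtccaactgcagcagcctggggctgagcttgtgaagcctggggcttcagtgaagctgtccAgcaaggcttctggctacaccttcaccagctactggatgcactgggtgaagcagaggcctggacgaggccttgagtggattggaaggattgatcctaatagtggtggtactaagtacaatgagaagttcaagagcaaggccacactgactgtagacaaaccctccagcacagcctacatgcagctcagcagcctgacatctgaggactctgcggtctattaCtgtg

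The counts were nevertheless unequal, with 11356 summed counts on *Ighv1-72* and 192 on *Ighv1-62-3*, although only 1.91% of the 31-base words of *Ighv1-72* occur in no other V gene. Over all 221 genes the median share of such unique words was 55.6%, and 91 genes had less than 50%. How Kallisto split reads between such copies cannot be read from the counts, and values of single genes with close copies are uncertain to that extent.

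The libraries held 18195345 to 41522204 counts, of which 2728 to 128819 were V counts. The ribosomal percentage, the covariate of the fits, was 10.0 to 18.6 in the 6 day 43 samples and 3.96 to 10.7 in the 20 others. RNA integrity numbers (RIN, where 10 is intact RNA) were 2.6, 8.4 and 7.8 on STD and 8.0, 6.8 and 9.3 on GW3965 at day 43, and 9.1 to 10.0 in the other samples. The 6 colonocyte markers were present in every group, with summed levels of 410 to 4222 CPM, the count of a gene divided by all counts of the library on a scale common to all libraries. The 5 stratified epithelium markers, which colon should lack, summed to 2.51 to 3.99 CPM at day 0, 2.48 to 24.7 CPM at day 22, 89.4 to 3017 CPM at day 43 and 5.03 to 15034 CPM at day 70. Their part in the results was not tested.

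On the GW3965 diet V transcripts were more abundant at days 22 and 43 than in the untreated colon, while on the standard diet every day overlapped day 0. At day 0 the V genes took 0.0156%, 0.0340%, 0.0501% and 0.0149% of all counts on GW3965 and 0.0169%, 0.0191%, 0.361% and 0.0922% on STD. The day 0 STD sample with 0.361% lay within the range of the treated samples, and the diets overlapped. At day 22 the share was 0.209%, 0.260% and 0.134% on GW3965 and 0.0981%, 0.145% and 0.354% on STD. At day 43 it was 0.225%, 0.330% and 0.289% on GW3965 and 0.0638%, 0.286% and 0.283% on STD, where the low value belonged to the sample with RIN 2.6. All 3 GW3965 samples of day 22 and all 3 of day 43 lay above all 4 GW3965 samples of day 0, with ratios of geometric means of 7.73 and 11.1. On STD the ratios were 3.00 and 3.02 and both comparisons overlapped. Without STD day 0 replicate 3, the sample with 0.361%, the log2 ratios on STD were 2.47 and 2.48, and without replicate 1 of that group they were 1.00 and 1.01. At day 43 the STD value was 2.31 without the sample of RIN 2.6. At day 70 the share was 0.103%, 0.514% and 0.0465% on GW3965 and 0.0208%, 0.140% and 0.0382% on STD, so that the 3 GW3965 samples spanned more than 10-fold and the diets overlapped. Against day 0 the ratio at day 70 was 5.38 on GW3965 and 0.840 on STD, again with overlap. The log2 ratio at day 70 was 1.46 on GW3965 without replicate 2 and 3.20 without replicate 3. On STD it was -1.02 without replicate 2 and turned to 0.64 without day 0 replicate 3 and to 0.35 without day 70 replicate 1. The comparisons with day 0 within a diet share their day 0 samples. These came from a cage without AOM–DSS samples, so that treatment and cage cannot be told apart. These shares sum over genes chosen on the same counts and are given without a test.

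**Figure D1:**
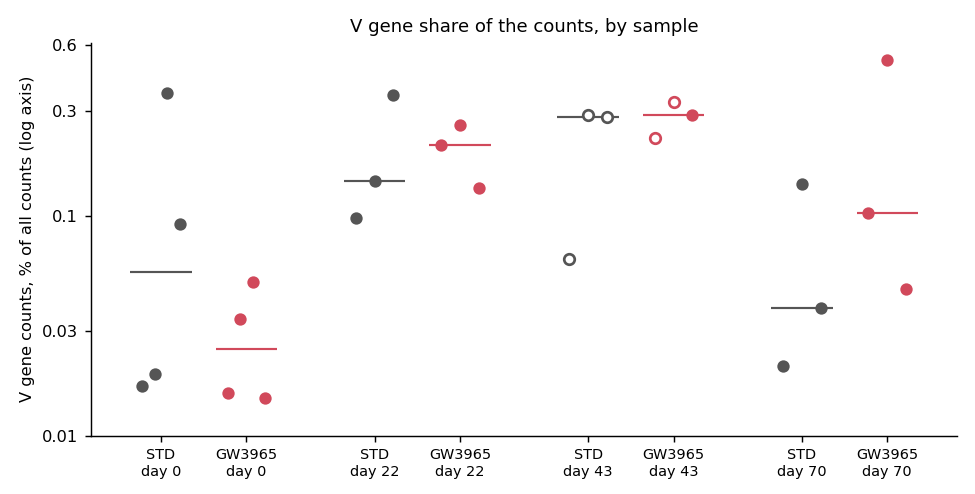
V gene counts as a percentage of all counts (log axis) in each of the 26 samples, by diet and day. Points are samples, lines are group medians and open points mark RIN under 9. The GW3965 samples of days 22 and 43 (0.134% to 0.330%) all sit above those of day 0 (0.0149% to 0.0501%), whereas the STD groups overlap.

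Once depth was made equal, the number of V genes seen ranged from 112 to 160 per sample, with the lowest value in a day 43 STD sample. With at least 1 count as the limit, 143 to 203 of the 221 genes were seen per sample. When every sample was brought to 2727 V counts by calculation, the GW3965 day 0 samples gave 160, 160, 153 and 157 genes, and the STD day 0 samples gave 151, 158, 147 and 149. At this equal depth the GW3965 samples gave 143, 148 and 154 genes at day 22, 153, 145 and 151 at day 43, and 142, 147 and 145 at day 70. The STD samples gave 156, 155 and 145 at day 22, 112, 144 and 138 at day 43, and 136, 157 and 154 at day 70. The GW3965 samples of days 43 and 70 thus lay below those of day 0 without overlap, the closest pair at day 43 being 152.9 and 153.3 genes, and on STD only day 43 lay below day 0. At day 43 the GW3965 samples lay above the STD samples, the closest pair being 145 and 144 genes. No STD sample of that day had a RIN of 9 or more, and each diet had a cage of its own. The parts of RNA integrity and cage were not tested. A common core carried most of the signal: 95 genes, all of them annotated as functional, were seen in all 26 samples and held 81.5% to 94.8% of the V counts. At the other end, 7 genes were seen in 5 samples or fewer.

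Usage was broad in nearly all samples and least even at day 43. The effective number of V genes, which is the number of equally used genes with the same Shannon entropy, was 77.6, 81.3, 76 and 85.8 on GW3965 and 69.8, 76.9, 64.0 and 74.3 on STD at day 0. On GW3965 it was 65.2, 62.9 and 69.7 at day 22, 65.6, 49.1 and 74.4 at day 43, and 63.7, 69.0 and 68.9 at day 70. All 9 GW3965 samples under AOM–DSS lay below all 4 of the untreated GW3965 samples. The untreated samples came from a cage of their own, so that treatment and cage cannot be told apart. On STD the values were 73.4, 67.2 and 73.7 at day 22, 19.2, 55.1 and 32.2 at day 43, and 68.1, 80.7 and 77.3 at day 70. Only day 43 lay below day 0 without overlap on this diet. Between diets the effective number overlapped at every day. The evenness, which is the entropy divided by its maximum over the genes seen, ranged from 0.593 to 0.881. At day 70 it was 0.805, 0.798 and 0.832 on GW3965, all below the 0.851, 0.843 and 0.847 on STD. At day 22 the GW3965 values of 0.782 to 0.800 also lay below those on STD, 0.800 to 0.818, although the closest samples differed only beyond the digits given. As few as 3 genes held 50% of the V counts in STD day 43 replicate 1, against 6 to 22 genes in the other samples.

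**Figure D2:**
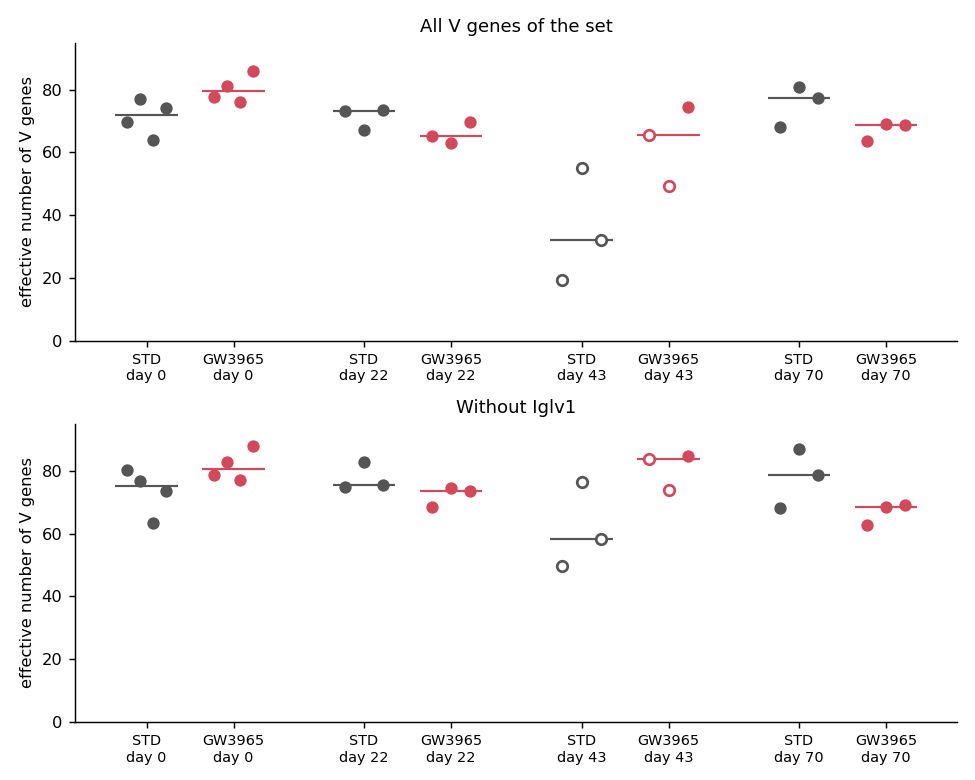
Effective number of V genes per sample, over all 221 genes in the upper panel and without *Iglv1* in the lower panel, by diet and day. Points are samples, lines are group medians and open points mark RIN under 9. The day 43 STD samples stand at 19.2 to 55.1 with *Iglv1* and at 49.6 to 76.4 without it.

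Much of the unevenness at day 43 came from a single gene, *Iglv1*, the main V gene of lambda chains. *Iglv1* took 41.7%, 18.7% and 29.5% of all V counts on STD and 15.1%, 21.7% and 10.5% on GW3965 at day 43, against 2.27% to 13.8% in the 20 samples of the other days. Its share moved with RNA integrity. In the 5 samples with RIN under 9, all of day 43, *Iglv1* held 15.1% to 41.7% of the V counts, and in the 21 others 2.27% to 13.8%, without overlap. Heavy chain V genes showed the reverse, with 5.14% to 21.2% of the V counts in the 5 samples and 25.2% to 42.3% in the 21 others. For every 100 counts on the heavy chain constant genes, which lie at the 3′ end of the transcript, there were 2.05 to 10.1 heavy chain V counts in the 5 samples and 12.8 to 22.7 in the others. For kappa the corresponding values were 18.8 to 31.4 and 40.3 to 62.6. For lambda they were 89.0 to 273 and 57.8 to 198, which overlapped and were not lower in the samples of low RIN. The part of RNA integrity in the day 43 values was not tested, and since no STD sample of day 43 had a RIN of 9 or more, day 43 and low integrity cannot be told apart on that diet. Without *Iglv1* the effective number at day 43 was 49.6, 76.4 and 58.3 on STD and 83.7, 74.0 and 84.7 on GW3965. Both then overlapped the day 0 range of their diet, which was 63.3 to 80.4 on STD and 77.0 to 88.1 on GW3965. On GW3965, days 22 and 70 still lay below day 0 without *Iglv1*, with 68.5, 74.4 and 73.7 and with 62.8, 68.5 and 69.2.

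**Figure D3:**
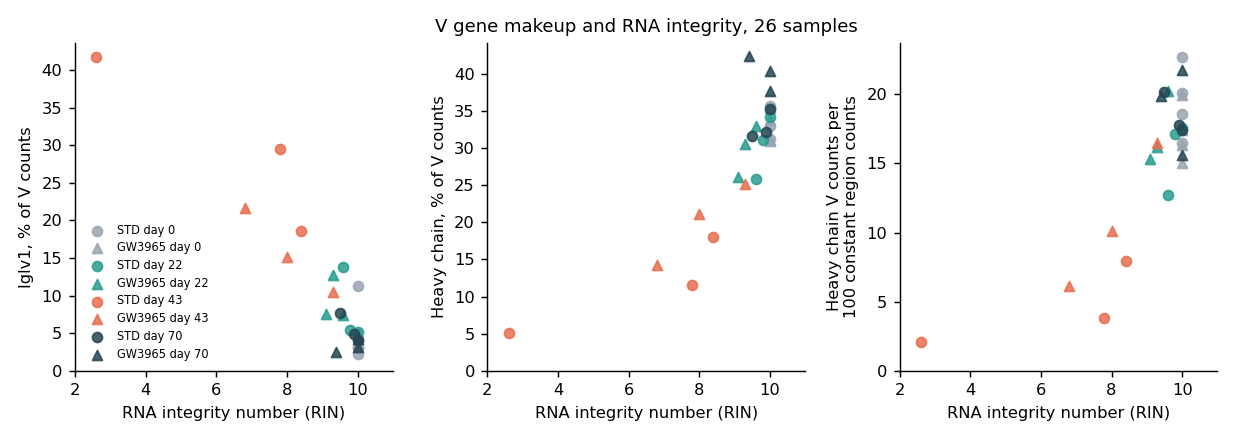
Share of *Iglv1* among V counts, share of heavy chain V genes among V counts, and heavy chain V counts per 100 heavy chain constant region counts, each against the RNA integrity number, for 26 samples by diet (shape) and day (colour). The 5 samples with RIN under 9 have the highest *Iglv1* shares (15.1% to 41.7%) and the lowest heavy chain values.

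Within the kappa locus the diets lay apart on days 43 and 70 and in opposite directions. The effective number of kappa V genes was 49.1, 46.7 and 48.0 on GW3965 and 35.8, 45.0 and 36.2 on STD at day 43. At day 70 it was 29.7, 33.2 and 33.6 on GW3965 and 37.5, 44.9 and 39.1 on STD. The day 43 GW3965 values lay above, and the day 70 GW3965 values below, the 39.6 to 45.7 of GW3965 at day 0. These separations were seen among many measures compared. At day 43 each diet came from 1 cage, so that diet and cage cannot be told apart. No STD sample of that day had a RIN of 9 or more, and the part of RNA integrity was not tested. Heavy chain V genes gave effective numbers of 31.1 to 49.6 over all samples, and the diets overlapped at every day, while GW3965 at day 70 (33.5, 35.8 and 37.3) lay below GW3965 at day 0 (38.9 to 48.6). At day 70 the heavy chain share of the V counts was 42.3%, 40.4% and 37.7% on GW3965, above the 35.3%, 31.6% and 32.2% on STD. No test was made of these sums, and 2 of the 3 day 70 GW3965 samples carried stratified epithelium markers at 15034 and 10464 CPM against 2409 to 4031 CPM on STD, with replicate 2 at 5.03 CPM. Replicate 1 also held skeletal muscle markers at 16859 CPM, against 11.9 and 24.4 CPM in the others and 8.74 to 742 CPM on STD. Their part in these values was not tested.

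Behind the similar breadth, the leading genes differed from sample to sample. Over the 26 samples 14 heavy chain and 16 kappa genes took the largest share of their locus at least once, and *Iglv1* led the lambda genes everywhere with 72.3% to 97.2%. The 8 most used heavy chain genes were *Ighv1-82* (6.47% of heavy chain V counts on average), *Ighv6-3* (4.52%), *Ighv5-17* (4.43%), *Ighv1-53* (4.33%), *Ighv8-12* (4.03%), *Ighv9-3* (4.02%), *Ighv1-72* (3.85%) and *Ighv1-64* (3.81%). Together they held 35.5%. Among kappa genes *Igkv10-96* (5.91%), *Igkv1-110* (5.11%), *Igkv1-117* (5.08%), *Igkv14-111* (4.93%), *Igkv6-15* (3.27%), *Igkv6-23* (3.26%), *Igkv5-48* (3.03%) and *Igkv2-137* (2.97%) led, with 33.5% together. Counts do not allow for gene length, but in TPM, which do, *Ighv1-82*, *Igkv10-96* and *Iglv1* again ranked highest in their loci. *Iglv2* (8.63%) and *Iglv3* (4.63%) made up the rest of lambda.

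Single samples were led by large peaks of 1 gene. In STD day 0 replicate 3, the untreated sample with the large V share, *Ighv6-3* took 22.6% of the heavy chain V counts and *Igkv6-25* 17% of the kappa V counts. *Ighv6-3* took 2.52% to 4.69% in the other 3 samples of that group and *Igkv6-25* 0.590% to 1.10%. In GW3965 day 70 replicate 1, *Ighv1-72* took 12.8% and *Igkv14-111* 23.3%, the largest kappa share of any sample. The other GW3965 day 70 samples were led by other genes, *Ighv9-3* (11.3%) with *Igkv2-137* (12.2%) in replicate 2 and *Ighv1-54* (12%) with *Igkv17-127* (11.3%) in replicate 3. The STD day 70 samples were led by *Ighv8-12* (18.2%) with *Igkv14-111* (8.54%), *Ighv6-3* (9.68%) with *Igkv4-80* (6.03%) and *Ighv8-8* (8.09%) with *Igkv1-117* (9.66%). At day 43 *Ighv6-3* (9.10%), *Ighv5-17* (6.95%) and *Ighv1-82* (16.1%) led on STD, and *Ighv5-17* led 2 of the 3 GW3965 samples with 11.5% and 15.3%. Kappa leaders at day 43 were *Igkv19-93* (10.8%), *Igkv14-111* (14.3%), *Igkv1-135* (6.68%) and, in 3 samples, *Igkv1-110* (8.06%, 6.76% and 6.43%). At day 22 *Igkv12-98* (10.9%), *Igkv6-17* (9.48%) and *Igkv9-120* (7.23%) led on STD and *Igkv6-15* (10.1% and 7.61%) and *Igkv10-96* (12.9%) on GW3965. Other leaders included *Ighv14-3*, *Ighv1-55*, *Ighv3-6*, *Ighv2-2*, *Ighv5-9*, *Ighv1-19* and *Igkv12-44*, each with 6.78% to 11.8% of its locus in the samples it led.

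**Figure D4:**
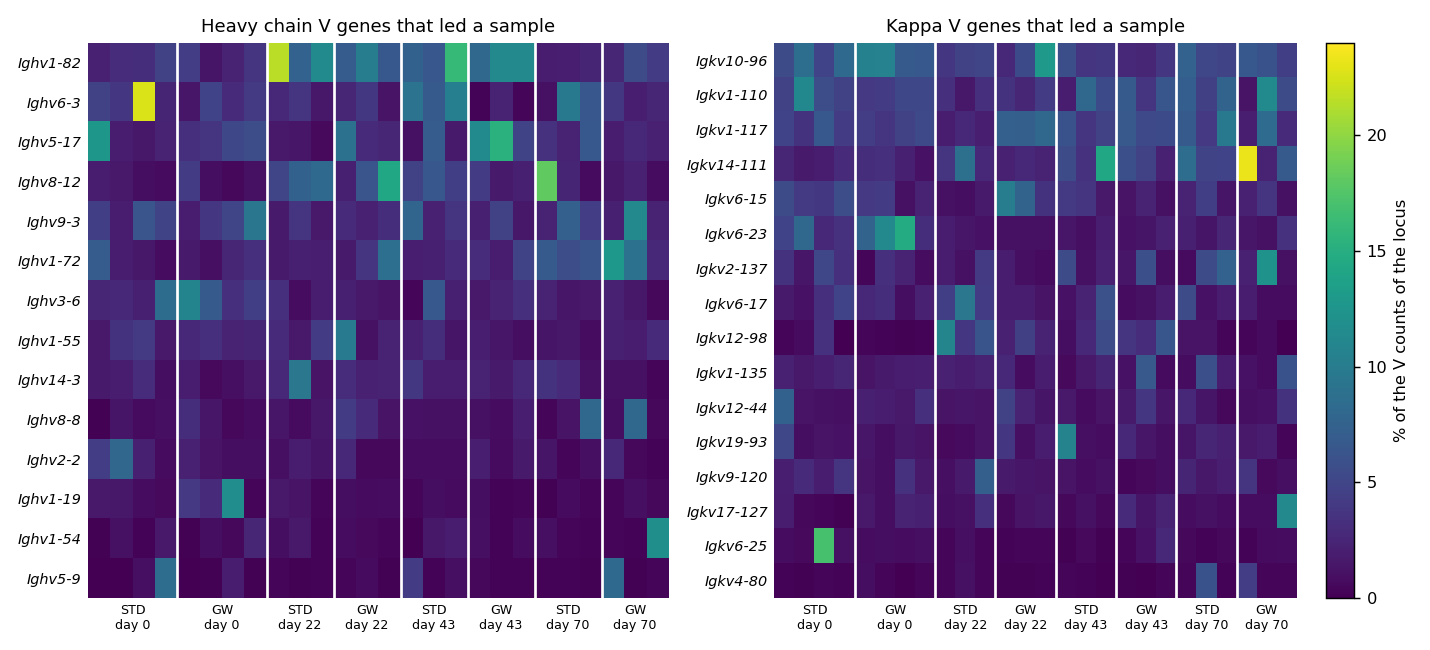
Usage, as a percentage of the V counts of the locus (colour), of the 14 heavy chain and 16 kappa V genes that took the largest share of their locus in at least 1 sample. Columns are the 26 samples by diet and day and rows are genes. *Ighv1-82* stands at 6.47% to 21.5% in all samples of days 22 and 43, and other peaks such as *Ighv6-3* with *Igkv6-25* stand in 1 sample.

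*Ighv1-82* was the exception, with a pattern that followed the day in both diets. At day 22 it took 21.5%, 7.57% and 11.5% of the heavy chain V counts on STD and 7.02%, 10.1% and 6.59% on GW3965. At day 43 it took 7.49%, 6.47% and 16.1% on STD and 8.07%, 11.3% and 11.3% on GW3965. At day 0 its usage was 2.21%, 3.01%, 3.13% and 4.62% on STD and 4.37%, 1.34%, 2.28% and 3.58% on GW3965, and at day 70 it was 1.95%, 1.98% and 2.5% and 2.57%, 5.46% and 4.25%. All 12 samples of days 22 and 43 (6.47% to 21.5%) lay above all 14 samples of days 0 and 70 (1.34% to 5.46%). Of the 221 genes, 1 showed such a separation in this direction, 0 in the other, and 220 overlapped. This split of the days was chosen after the values were seen and was not tested, and the 12 samples came from 2 cages that supplied no sample of days 0 and 70, so that day and cage cannot be told apart.

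*Igkv6-23* was used more in the untreated colon, with 4.80%, 8.14%, 2.80% and 3.41% of kappa V counts on STD and 7.67%, 11.3%, 14.8% and 3.12% on GW3965. Under AOM–DSS it took 1.01% to 3.41% in all 18 samples, which overlaps the lower untreated values. Its family *Igkv6*, of 9 genes, held 20.2% of kappa V counts on average in the STD and 18.4% in the GW3965 day 0 group and 10.6% and 7.73% at day 70. The largest family, *Ighv1* (59 genes), held 44.4% to 63.6% of the heavy chain V counts. Smaller families varied more between samples, with *Ighv8* at 1.10% to 18.5%, *Ighv6* at 1.80% to 23.6% and *Ighv5* at 2.86% to 20.6% of heavy chain, and *Igkv4* (31 genes) at 7.53% to 29.4% and *Igkv14* at 1.71% to 23.4% of kappa V counts. The 50% of heavy chain members nearest to the constant genes held 32.7% to 60.4% of their locus. In kappa the nearer members held 49.8% to 53.0% in the 8 day 0 samples and 32.6% to 49.6% in the 18 AOM–DSS samples, without overlap, and 33.4% to 35.6% in the GW3965 day 70 samples. This split was seen in the values and not tested, and the day 0 samples came from cages of their own, so that treatment and cage cannot be told apart.

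Some genes were used mostly in 1 sample. Of 130 genes with at least 1000 summed counts, 4 drew more than 50% of their summed usage from 1 sample, where the median gene drew 15.9% from its highest sample and an evenly used gene would draw 3.85%. These 4 were named after their values were seen. *Igkv5-37* had 3654 counts in GW3965 day 70 replicate 2, 5.06% of its kappa V counts, and at most 16 counts in any other sample. *Igkv11-125* had 828 counts in STD day 22 replicate 1 and at most 95 elsewhere. *Ighv1-11* had 1113 counts in STD day 0 replicate 3 and at most 41 elsewhere. *Igkv6-25* had 7774 counts in the same sample, 50.2% of its summed usage, and up to 1027 counts elsewhere.

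The likeness of 2 samples was measured as the sum, over genes, of the smaller of their usages, so that 100% would be identical usage. Over all 325 pairs it was 42.2% to 73.6% for heavy chain genes and 42.3% to 78.7% for kappa genes. Pairs within a group had medians of 59.0% and 63.5%, and pairs of other days and cages had 53.5% and 57.0%. Pairs of the same cage on different days had 60.4% and 59.7%, in the range of pairs of 1 group. Within a group the GW3965 day 70 samples were the least alike in kappa usage, at 44.2% to 46.9%, against 62.5% to 67.7% within STD day 70 and 68.4% to 72.6% within GW3965 day 43. Each day 70 sample of either diet came from a cage of its own. Pairs share samples and were not tested.

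To compare single genes across groups, counts were fitted for all genes with edgeR's quasi-likelihood test, with the ribosomal percentage as a covariate and an adjusted P (FDR) below 0.05 over 17063 genes as the limit for a call. The filter on low counts kept 182 of the 221 V genes, and the 39 others held at most 0.650% of the V counts of a sample. Since a gene can pass this filter through the group in which it is high, and since the V genes were chosen on the same counts, the counts of calls below describe the tested V genes and are set beside the share of all genes called. Shares for alternative fits, and for fits with a sample left out, count genes called in either direction. Counts of V genes whose groups did not overlap, or at an unadjusted P below 0.05, have no share of all genes beside them. They were not made over all genes and cannot be read as particular to V genes. The comparisons with day 0 share their day 0 samples within a diet, and treatment and cage cannot be told apart in them.

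On the GW3965 diet many V genes rose over the untreated colon at days 22 and 70. At day 22, 34 of 182 tested V genes (18.7%) were called higher and 0 lower, where 9.13% of all genes tested were called higher. They came from all 3 loci, with 15 heavy chain, 17 kappa and 2 lambda genes. The lowest P belonged to *Igkv9-123*, with 33.1, 9.63 and 0.789 CPM at day 22 and 0.344, 0.0975, 0.146 and 0.164 CPM at day 0 (log2 fold change 6.37, standard error 1.21, FDR 0.00191). Its 3 day 22 values were higher than all at day 0 although they spread more than 10-fold. *Igkv8-24* had 48.5, 52.6 and 41.5 CPM at day 22 and 0.344, 1.22, 2.15 and 1.47 CPM at day 0 (log2 fold change 5.33, standard error 1.15, FDR 0.00476). *Ighv8-12* had 14.3, 50 and 49.9 CPM against 0.546 to 2.01 CPM (5.55, standard error 1.31, FDR 0.00832). *Iglv2* (log2 fold change 6.09), *Igkv17-121* (4.93), *Igkv16-104* (4.49), *Igkv8-21* (6.12) and *Ighv1-4* (5.79) completed the 8 genes of lowest P. The median log2 fold change of the 182 genes was 2.38, against 0.02 for all genes. All 3 samples of day 22 exceeded all 4 of day 0 in 88 of the 221 genes, a count not made over all genes. The test called 16, 18, 19 and 10 V genes without day 0 replicates 1, 2, 3 and 4, and 13 and 12 without day 22 replicates 1 and 2. In these fits 4.85% to 9.92% of all genes were called in either direction, whereas the 9.13% counts only those called higher.

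At day 70 on GW3965, 42 of 182 tested V genes (23.1%) were called higher and 0 lower, beside 14.4% of all genes. They were 19 heavy chain, 22 kappa and 1 lambda gene. *Ighv9-4* had 2.16, 44.7 and 14.1 CPM at day 70 and 0.0982, 1.51, 0.244 and 0.491 CPM at day 0 (log2 fold change 5.33, standard error 1.13, FDR 0.00256). *Ighv1-42* had 5.40, 40.7 and 2.17 CPM against 0.147, 0.538, 0.293 and 0.273 CPM (5.49, standard error 1.16, FDR 0.00257). *Igkv14-111* had 131, 66.2 and 18.1 CPM against 3.09, 7.11, 6.29 and 1.04 CPM (4.56, standard error 0.996, FDR 0.00316). In these 3 genes every day 70 sample lay above every day 0 sample. *Ighv1-72* (5.33), *Igkv4-74* (4.49), *Ighv1-85* (5.04) and *Ighv1-82* (4.23) were also among the 8 of lowest P, as was *Igkv5-37*, whose call rested on the 146 CPM of replicate 2. The groups did not overlap in 15 of the 42 genes, and the median log2 fold change was 2.67, against 0.10 for all genes and 0.99 without replicate 2. The test called 11 V genes and 23% of all genes without GW3965 day 70 replicate 2, which held 0.514% V counts. Without replicates 1, 2 and 4 of day 0 it called 14, 18 and 13, beside 16.1%, 17.4% and 16.5% of all genes. These shares with a sample left out count genes called in either direction, whereas the 14.4% counts only those called higher. The stratified epithelium markers that stood out at day 70 were at 5.03 CPM in replicate 2.

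At day 43 on GW3965 the values were higher still, but the test with the ribosomal covariate called 0 V genes, with 60 at an unadjusted P below 0.05 and 9 called by DESeq2. Of all genes, 0.938% were called by edgeR with the covariate and 3.47% by DESeq2. The median log2 fold change was 3.10 and in 126 of the 221 genes all day 43 samples lay above all day 0 samples, a count not made over all genes. Without the ribosomal percentage in the fit, edgeR called 103 V genes higher, where 45.3% of all genes were called. The ribosomal percentage itself stood at 10.0 to 17.6 in these samples and at 5.59 to 6.51 in GW3965 day 0, so that group and covariate were partly aligned, and their parts were not separated.

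On the standard diet few V genes passed the test. At day 22, 2 were called higher, 1.10% of those tested where 6.19% of all genes were called higher. *Igkv9-123* had 5.06, 2.82 and 3.85 CPM at day 22 and 0, 0.146, 0.0477 and 0.106 CPM at day 0 (log2 fold change 5.77, standard error 1.28, FDR 0.00929, edgeR). *Igkv4-86* had 5.33, 1.36 and 81.3 CPM against 0.0492, 0.0971, 0.812 and 0.375 CPM (6.48, standard error 1.51, FDR 0.0119). *Igkv9-123* was called on both diets at this day. Without STD day 0 replicate 3, the untreated sample rich in V counts, 20 V genes were called, beside 6.62% of all genes. The median log2 fold change was 2.09 against 0.74 with it. Without STD day 22 replicates 1 and 3, 6 and 1 V genes were called, beside 7.95% and 2.19% of all genes. The shares with a sample left out count genes called in either direction, whereas the 6.19% counts only those called higher. At day 43 edgeR called 0 V genes and 0% of all genes, so that its count bears on no gene in particular, with 8 V genes at an unadjusted P below 0.05 and 0 called by DESeq2, and without the ribosomal percentage 28 V genes and 55.1% of all genes.

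At day 70 on STD, 4 V genes were called higher and 9 lower, beside 18.1% and 15.1% of all genes. The 4 higher genes were *Ighv7-4*, *Igkv8-19* (log2 fold change 3.23), *Igkv1-88* (3.69) and *Ighv2-4* (4.18). *Ighv7-4* had 2.91, 0.242 and 0.0469 CPM at day 70 and was listed at 0 in 3 of the 4 day 0 samples, with 0.0531 CPM in the fourth. The lower genes included those with a peak in 1 day 0 sample. *Igkv6-25* had 0.685, 1.65 and 1.2 CPM at day 70 and 0.743, 0.731, 371 and 6.23 CPM at day 0 (log2 fold change -6.27, standard error 1.88, FDR 0.0147, edgeR). Its groups overlapped, and the fitted change rested on 1 untreated sample. *Ighv1-11* and *Igkv11-125* were listed at 0 in all 3 day 70 samples. At day 0 *Ighv1-11* had 53.1 CPM in replicate 3 and at most 0.159 CPM in the others. The remaining lower genes were *Igkv4-90*, *Igkv4-62*, *Ighv1-62-2*, *Ighv1-2*, *Ighv2-2* and *Igkv3-9*. The groups did not overlap in 3 of the 13 genes, and the direction rested on single samples. Without STD day 0 replicate 3, 7 genes were called higher and 3 lower, and the median log2 fold change was 0.96 against -0.74 with it. Without STD day 70 replicates 1 and 3, 3 and 4 genes were called higher and 0 lower, without replicate 2, 1 higher and 2 lower, and without day 0 replicate 4, 1 higher and 5 lower. In these fits 23.8% to 32.4% of all genes were called in either direction.

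The diets were then compared at each day. At day 70 *Ighv1-42* and *Ighv9-4* were higher on GW3965, which is 1.10% of the V genes tested where 1.75% of all genes were called higher. *Ighv1-42* had 5.40, 40.7 and 2.17 CPM on GW3965 and 0, 0.387 and 0.375 CPM on STD (log2 fold change 5.74, standard error 1.34, FDR 0.0357, edgeR). *Ighv9-4* had 2.16, 44.7 and 14.1 CPM on GW3965 and 0.358, 1.21 and 0.284 CPM on STD (5.25, standard error 1.27, FDR 0.0413, edgeR). The diets did not overlap in either gene. Both calls were lost without GW3965 day 70 replicate 2, when 0 V genes were called, and 0 were called when any of the 3 STD samples was left out, while 10 were called without GW3965 replicate 3. Of all genes, 4.35% were called in either direction without GW3965 replicate 2 and 8.39% without GW3965 replicate 3. Without STD replicates 1, 2 and 3 the shares were 0.0343%, 0.305% and 0.0401%, so that few genes of any kind were called. The 0 V genes of those fits are therefore not particular to V genes. The median log2 fold change of the V genes was 1.54, with 155 of 182 higher on GW3965, against 0.02 for all genes. Without GW3965 replicate 2 the median was -0.086, so that the direction of the set rested on this sample.

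At days 0, 22 and 43 edgeR called 0 V genes between the diets, beside 0.0293%, 0.135% and 0.0293% of all genes. At an unadjusted P below 0.05 there were 52, 12 and 14 V genes, and DESeq2 called 3, 0 and 1, beside 0.158%, 1.78% and 0.423% of all genes. At day 0 the V genes leaned lower on GW3965, with 160 of 182 below STD and a median log2 fold change of -1.59, which was -0.34 without STD replicate 3, while 4 of 221 genes lay lower in all GW3965 than in all STD samples. At day 22 the median was 0.05. At day 43 it was 0.88 and 43 of 221 genes were higher in all GW3965 than in all STD samples, where the STD group held the sample with RIN 2.6. The difference of the diet effect between day 0 and days 22, 43 and 70 was tested as an addition made after the values were seen. It gave 0 called V genes at each day, beside 0.0234%, 0% and 0% of all genes called at the same FDR limit. At an unadjusted P below 0.05 there were 24, 44 and 75 V genes, counts not made over all genes.

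**Figure D5:**
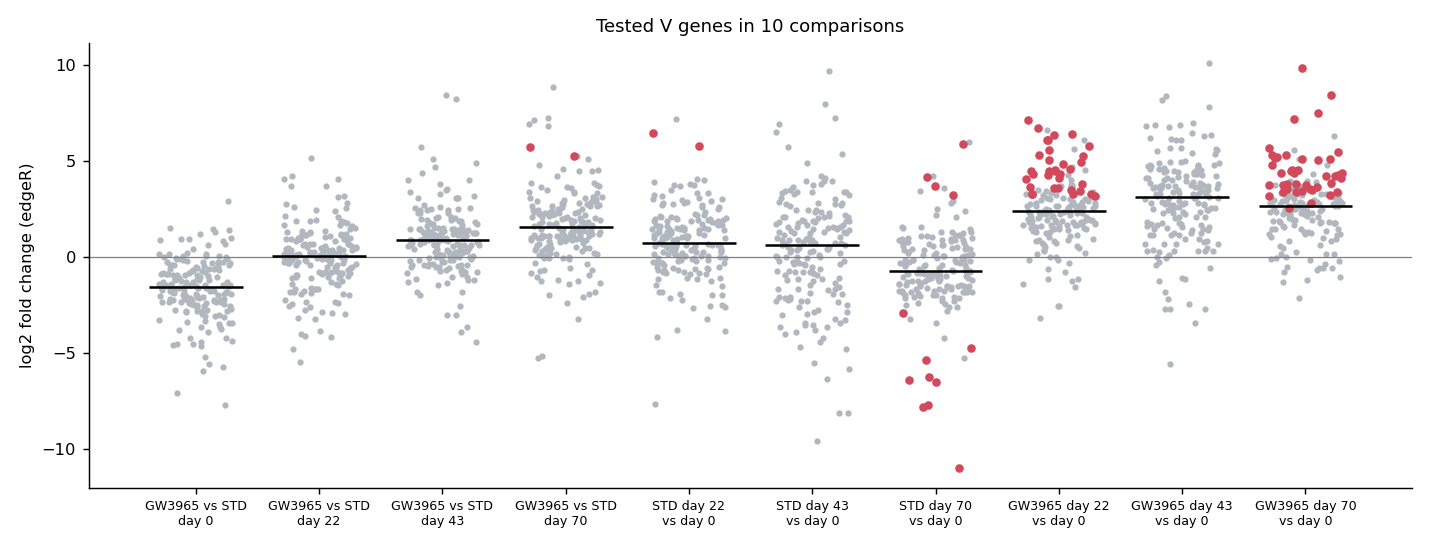
Log2 fold changes (edgeR) of the 182 tested V genes in 10 comparisons. Each point is a gene, red points have FDR below 0.05 and black lines are medians. The medians run from -1.59 for the diet at day 0 to 3.10 for GW3965 day 43 against day 0, and most red points belong to GW3965 days 22 (34) and 70 (42).

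The joint likelihood ratio test of all diet terms, in the model of diet, day and ribosomal percentage with all interactions, called 10 V genes and 0.932% of all genes. The 10 genes were *Ighv15-2*, *Ighv14-4*, *Ighv5-15*, *Igkv12-98*, *Igkv12-38*, *Ighv1-20*, *Igkv6-13*, *Ighv1-34*, *Igkv4-62* and *Igkv4-81*. These calls are listed without further reading, since 9 of them were lost in at least 1 of the simpler models. When the ribosomal percentage entered without interactions, 12 V genes and 3.44% of all genes were called, and without it 18 V genes and 5.29%. *Igkv4-62* was called in all 3 models.

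Other genes of the antibody machinery were read beside the V genes. Of 12 constant region genes 7 were higher at day 22 and 7 at day 70 on GW3965, compared with day 0 by edgeR, beside 9.13% and 14.4% of all genes. They included *Igkc*, the kappa constant region, at both days (log2 fold changes 2.76 and 3.13), and *Ighg2b*, of an IgG subclass (5.18 and 5.26). *Igha*, the constant region of IgA, was higher at day 70 (3.31, FDR 0.0207). On STD at day 70, *Ighm* and *Ighd*, the constant regions of IgM and IgD, and *Iglc2* were lower (-2.16, -4.22 and -2.76), where 15.1% of all genes were called lower. *Igha* held 57.2% to 97.4% of the heavy chain constant counts in all samples. The IgG genes together held 1.09% to 5.56% at day 0, 6.71% to 11.6% at day 22 and 12.5% to 32.5% at day 43, so that the 3 days did not overlap, and 1.60% to 16.3% at day 70. In the 5 samples with RIN under 9, all of day 43, they held 12.5% to 32.5%, and in the 21 others 1.09% to 17.7%. The part of RNA integrity in the IgG shares was not tested, and day 0 came from cages without AOM–DSS samples. Of 10 plasma cell genes, 6 were higher at day 22 and 5 at day 70 on GW3965, among them *Jchain*, which joins IgA units (3.01 and 3.09), and *Prdm1*, a regulator of plasma cell fate (2.25 and 2.95). On STD 1 of the 10 was higher at day 22, beside 6.19% of all genes. At day 70 on STD 3 were higher and 1 lower, beside 18.1% and 15.1% of all genes. The median log2 fold change of the 10 was then -0.85, so that the members went in both directions. Of 6 T cell markers, 6 were higher at day 22 and 4 at day 70 on GW3965, and 3 at day 22 on STD, beside 9.13%, 14.4% and 6.19% of all genes. Their part in the V gene results was not tested.

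Between the diets at day 70 all 10 B cell markers were higher on GW3965 by edgeR, beside 1.75% of all genes, with summed levels of 74.4, 526 and 26.6 CPM on GW3965 and 5.84, 14.4 and 8.39 CPM on STD. Of the constant region genes *Ighm* (log2 fold change 3.89, FDR 0.0188) and *Ighd* (5.33, FDR 0.0182) were higher, and of the 10 plasma cell genes *Prdm1* was (1.17, FDR 0.0197). The 6 plasma cell markers summed to 957, 2362 and 1040 CPM on GW3965 and 852, 1346 and 873 CPM on STD, values that overlapped. Of these sums *Jchain* made up 382, 2077 and 214 CPM on GW3965 and 122, 747 and 291 CPM on STD. In several samples most of the sum thus came from other members, and it cannot be read as the level of plasma cells. Whether the V genes and the B cell markers responded differently was not tested. At day 70 on STD all 10 B cell markers were lower than at day 0, beside 15.1% of all genes, with a median log2 fold change of -3.77. On GW3965 0 of the 10 were called against day 0 at day 22 or day 70, with medians of 1.66 and 0.62. The diet difference at day 70 thus went with lower values on STD and not with called rises on GW3965. *Pigr*, which carries IgA across the epithelium, was called in none of the 10 comparisons by edgeR. *Rag1*, which cuts the V genes during rearrangement, was at 0 in 24 of 26 samples.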

How the data were processed

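Total RNA from distal colon biopsies was sequenced in 26 samples after poly(A) selection, and the authors quantified it with Kallisto on the GRCm38 transcriptome (the Kallisto version and annotation release are not given in the sources used here). The deposited values are estimated counts per transcript, expected counts that need not be whole. The authors also deposited TPM from the same run, which correct for transcript length and are used here only to rank genes. Estimated counts were summed per gene with GENCODE M21 symbols and biotypes (116728 of 119414 transcripts matched, and 0.615% to 0.999% of counts did not) and rounded to whole numbers for the tests. Kallisto assigns reads to germline transcripts, so joined and mutated V sequences are read through their likeness to the germline.

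Groups were taken from the labels, and the sample with conflicting diet labels was placed by its title. The members and the gene lists were chosen with earlier results of these data known. Usage is the share of a V gene in the V counts of its locus. For 10 comparisons, all 17063 genes that passed edgeR's expression filter were fitted together with edgeR 4.0.16 (R 4.3.3, TMM normalization, quasi-likelihood test, 8 groups plus the ribosomal percentage, the summed share of 88 ribosomal protein genes), with Benjamini-Hochberg adjustment and FDR below 0.05. DESeq2 1.42.0 was an alternative. A likelihood ratio test of all diet terms used the model of diet, day and ribosomal percentage with their interactions. On simulated counts for 16850 genes with 200 changed by a log2 change of 2, the quasi-likelihood test recovered 156 for the diet at day 70 and 159 for GW3965 day 70 against day 0, while the joint test recovered 2 among 78 calls with its interactions and 155 among 225 calls with an additive ribosomal term, so that nearly all calls of the former were false. Shares, numbers of genes seen and effective numbers were computed per sample and not tested. The sources differ on whether a sample is 1 mouse or a pool of biological replicates, and p-values measure only the spread between these samples.

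Genes named are the 8 heavy chain, 8 kappa and 3 lambda V genes of largest mean usage, any V gene leading its locus in a sample, V genes called in a comparison (the 8 of lowest P where more than 8 were called) and members of the fixed lists. Beyond this rule, all V genes called for STD day 70 and in the joint test with interactions were named. So were genes next to the count limit and genes of the sequence pairs. Other genes outside this rule are marked in the text. Alternatives were DESeq2, other normalizations, no expression filter, no ribosomal term, a replicate block, leaving out each sample, other diversity measures and other limits for a gene to be seen. The effective numbers without *Iglv1* or per locus and the test of the difference between diet effects were added after the data were seen.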

Additional observations from a re-analysis of the deposited data

Results flagged for a closer look

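In STD day 0 replicate 1 *Iglv1* held 11.2% of the V counts, far from the 2.27%, 3.18% and 3.01% of the other 3 samples of the group (gap to the nearest sample 0.898 of the range). The lambda V genes together held 12% in the same sample (0.877 of the range), which is largely the same counts. In GW3965 day 0 replicate 4 *Iglv1* held 5.06% of the V counts against 4.63%, 4.69% and 4.63% (0.866 of the range), a small difference in absolute terms. Only the day 0 groups have the 4 samples this comparison needs. In 24 combinations of group and measure, chance alone gives a sample this far from the others in about 1 in 20.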

How the results depend on the processing

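The V share kept its direction and stayed within the spread between samples under all 20 alternatives other than leaving out a sample. With a sample left out its log2 ratio changed sign for STD day 70 (-1.02 to 0.64), the diet at day 22 (-0.22 to 0.70) and the diet at day 43 (-0.03 to 1.05). Counts of called V genes depended on the test. DESeq2 called 3 for the diet at day 0, 1 at day 43 and 12 at day 70, beside 0.158%, 0.423% and 7.13% of all genes. Against day 0 it called 14 for STD day 22, 9 for GW3965 day 43 and 75 for GW3965 day 70, beside 11.9%, 3.47% and 26.6% of all genes. Without the ribosomal percentage edgeR called 4 for the diet at day 70, 7 for STD day 22, 28 for STD day 43, 103 for GW3965 day 43 and 18 in the joint test. The shares of all genes called were 3.07%, 9.55%, 55.1%, 45.3% and 5.29% in this order. The other normalizations and the fit without the expression filter moved no count by over 1.5 times. The cause of these changes was not tested.

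Replicate numbers did not pair the samples, since the deviations of same-numbered samples had correlations of -0.37 to 0.20 (mean -0.07, 13 pairs). With a replicate block edgeR called 0 V genes for the diet at day 70, 4 for STD day 70, 1 for GW3965 day 43 and 11 for GW3965 day 70. Of all genes, 0.0469%, 30.3%, 0.873% and 16.5% were called in these comparisons. The other counts with the block were 38 for GW3965 day 22 (11.3% of all genes), 3 for STD day 22 (6.05% of all genes) and 0 elsewhere.

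With each sample left out in turn, the called V genes were 10 to 28 for GW3965 day 22, 11 to 51 for GW3965 day 70, 1 to 20 for STD day 22, 3 to 10 for STD day 70, 0 to 10 for the diet at day 70 and 0 in the other comparisons. Of all genes, the fits called in either direction 4.85% to 9.92% for GW3965 day 22 and 14.9% to 23% for GW3965 day 70. They called 2.19% to 7.95% for STD day 22, 23.8% to 32.4% for STD day 70 and 0.0343% to 8.39% for the diet at day 70. Where this left 2 samples in a group, the spread was pooled over all groups.

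The log2 ratio of the effective number moved by more than the spread with the inverse Simpson index to -0.30 for the diet at day 70, -2.01 for STD day 43, -0.44 for GW3965 day 22, -0.89 for day 43 and -0.36 for day 70. Without *Iglv1* it was -0.28 for STD day 43, -0.18 for GW3965 day 22 and -0.016 for GW3965 day 43. With heavy chain genes alone it was 0.12 for the diet at day 43, -0.12 for STD day 22, -0.16 for STD day 43 and -0.16 for GW3965 day 43. With kappa genes alone it was 0.31 and -0.33 for the diet at days 43 and 70, 0.22 and 0.10 for STD days 22 and 43, and -0.11, 0.21 and -0.36 for GW3965 days 22, 43 and 70.

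Without equal depth the difference in V genes seen at 1 count or more was -7.00, 2.33 and 13.3 for the diet at days 0, 22 and 70, 20.8 and 5.83 for STD days 22 and 43, and 30.2, 32.5 and 12.2 for GW3965 days 22, 43 and 70. At 5 counts or more it was -8.25, 5.33, 18.7, 28.9, 20.6, 42.5, 51.2 and 28.8 in the same order. By construction these differences include that of the V counts. With a sample left out, neither the effective number nor the number of genes seen moved beyond the spread in any of 68 fits each.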
